A study of Mus musculus with 8 samples.

Results

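Guanylate-binding proteins are large GTPases that cells make in response to interferons, and 4 of their genes, Gbp2, Gbp2b, Gbp3 and Gbp7, were followed here of 8251 genes measured. They were chosen by gene symbol in the platform annotation, which gives 1 probe set to each of the 4. The cells were CD8+ dendritic cells purified from the spleens of 60-day-old female DBA/2J mice. The mice had been given Flt3 ligand, 10 µg for 9 days, to expand these cells. They were cultured with interferon gamma (IFN-γ, the mouse protein, 200 U/ml) for 16 hours, in medium alone for 16 hours, with IFN-γ for 4 hours, or in medium alone for 4 hours, and each of these 4 groups had 2 arrays, 8 in all. All groups share the strain, the Flt3 ligand and the culture, and there was no uncultured sample among them. The labels do not say whether arrays of a group stand for separate animals, and the p-values therefore measure the spread between arrays, which may be technical.

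IFN-γ binds its receptor, which works through the kinases JAK1 and JAK2. Promoters of genes that answer it often hold gamma-activated sites or interferon-stimulated response elements, the second bound by the transcription factor IRF1, and both kinds of element are known from this gene family. In mouse cells the proteins gather on vacuoles that hold parasites or bacteria and on bacteria in the cytosol, where they help to break these membranes and to bring on inflammasome activation. Gbp2 carries a C-terminal lipid anchor and is needed to control Toxoplasma in mice. Gbp2b, which RefSeq also lists as Gbp1, and Gbp3 are likewise recruited to Toxoplasma vacuoles in mouse cells, and Gbp7 has been tied in mouse macrophages to the autophagy machinery and to assembly of the phagocyte oxidase.

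The 4 genes are neighbours. RefSeq lists 10 protein-coding Gbp genes in the mouse, 5 on chromosome 3 and 5 on chromosome 5. Those on chromosome 3 lie in the order Gbp5, Gbp7, Gbp3, Gbp2b and Gbp2, with a single long noncoding RNA gene between Gbp3 and Gbp2b and no other protein-coding gene among them. No probe set named Gbp5 alone was found in the annotation used. A further probe set, whose annotation pairs 2 genes of the family, read between 44.4 and 57.6 in intensity on the 8 arrays and is not named here. The proteins are close paralogs, and whether a probe set also reads a neighbour's transcript was not tested.

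The promoters are shown because the 4 genes differed in the same direction with IFN-γ and because the elements through which IFN-γ is known to act are short and can be read in them. Each window runs from 250 bases before to 50 bases after a RefSeq start site, 5′ to 3′ on the plus strand of chromosome 3 in GRCm38.p6, the C57BL/6J reference and not the DBA/2J strain of these mice. Capitals mark every match, on either strand, to GAAANNGAAA (TTTCNNTTTC on the other strand), taken as the core of the interferon-stimulated response element, and to TTCNNNGAA, the gamma-activated site, which reads the same on both strands.

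Gbp7, chr3:142530086-142530385: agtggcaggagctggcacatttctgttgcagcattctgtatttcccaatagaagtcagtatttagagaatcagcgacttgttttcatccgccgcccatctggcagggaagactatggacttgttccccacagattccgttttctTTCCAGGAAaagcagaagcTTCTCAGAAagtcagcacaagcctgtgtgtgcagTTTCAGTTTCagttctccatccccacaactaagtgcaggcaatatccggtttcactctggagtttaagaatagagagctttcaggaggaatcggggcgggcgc
Gbp3, first start, chr3:142559794-142560093: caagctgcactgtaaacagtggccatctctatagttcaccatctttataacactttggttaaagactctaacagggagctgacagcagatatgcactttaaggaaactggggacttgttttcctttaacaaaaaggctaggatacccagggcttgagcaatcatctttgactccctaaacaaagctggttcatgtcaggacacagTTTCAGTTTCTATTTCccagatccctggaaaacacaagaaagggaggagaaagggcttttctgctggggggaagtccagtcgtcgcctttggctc
Gbp2b, chr3:142594597-142594896: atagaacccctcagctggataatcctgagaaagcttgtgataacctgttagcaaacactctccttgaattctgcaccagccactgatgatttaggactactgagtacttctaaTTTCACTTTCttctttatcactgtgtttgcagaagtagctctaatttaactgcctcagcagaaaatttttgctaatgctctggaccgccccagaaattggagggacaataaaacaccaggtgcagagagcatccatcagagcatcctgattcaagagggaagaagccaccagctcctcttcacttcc
Gbp2, chr3:142620413-142620712: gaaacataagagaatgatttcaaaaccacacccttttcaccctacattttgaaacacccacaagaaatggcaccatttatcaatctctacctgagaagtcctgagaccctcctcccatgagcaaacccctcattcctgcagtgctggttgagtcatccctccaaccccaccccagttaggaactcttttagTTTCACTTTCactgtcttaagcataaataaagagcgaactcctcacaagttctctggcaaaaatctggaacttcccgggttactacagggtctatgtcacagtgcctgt

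All 4 windows held the response element core, and in each the match was on the minus strand. The Gbp2 and Gbp2b windows share the same 10 letters, TTTCACTTTC, at -59 to -50 bases from the start in Gbp2 and at -137 to -128 in Gbp2b. Gbp7 and Gbp3 share TTTCAGTTTC, at -53 to -44 in Gbp7 and -45 to -36 in Gbp3. In Gbp3 a match to TTTCTATTTC, at -39 to -30, overlaps the first. The gamma-activated site was matched in the Gbp7 window only among these 4, as TTCCAGGAA at -106 to -98 and TTCTCAGAA at -87 to -79. A window at another start of Gbp3 held neither motif. Among 32851 promoter windows of this length in RefSeq, 3.44% held the response element core, 8.3% the gamma-activated site and 0.454% both. A match is a run of letters, and binding of a factor was not measured.

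**Figure D1:**
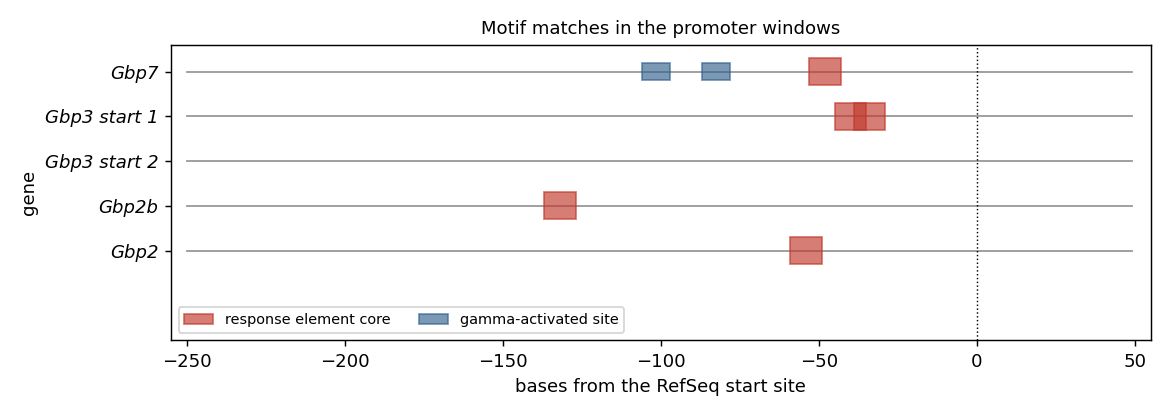
Motif matches in the promoter windows of the 4 genes, by distance in bases from the RefSeq start site (dotted line); red boxes are response element cores, blue boxes gamma-activated sites, and lines the windows searched. The core lies between -59 and -30 in Gbp7, Gbp3 (first start) and Gbp2, and at -137 to -128 in Gbp2b.

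Of 12422 probe sets tested, the median intensity was 51.3 to 53.7 on the 8 arrays. As a gauge of unspecific signal, 15 antisense controls were read, and their median lay between 44.9 and 61.2. Of 10 measured markers of CD8+ dendritic cells, 1 was below this median on every array, Itgae. Xcr1 was below it on every array except array 1 of IFN-γ at 16 hours, where it read 64.2 against a median of 55.5. Cd8a read between 429 and 542. The summed intensity of the 10 markers was 3641 and 4269 with IFN-γ and 3454 to 3659 in medium at 16 hours. At 4 hours it was 4780 to 5024 with IFN-γ and 4340 to 4536 in medium. That sum holds Irf8, which is itself a target of IFN-γ. Irf8 alone read 1317 and 1365 with IFN-γ against 777 and 738 in medium at 16 hours. At 4 hours it read 1594 and 1591 against 1043 and 1047. The higher sum with IFN-γ therefore cannot be read as a rise of the other markers. The sum of 9 macrophage markers, cells that also make guanylate-binding proteins, was lower with IFN-γ at both times: 1908 and 2228 against 2282 and 2441 in medium at 16 hours, and 769 and 792 against 928 and 955 in medium at 4 hours. The macrophage sum includes Mrc1 and Cd5l, which were below the antisense median on every array. Its members did not all go in the same direction. At 16 hours C1qb read 235 and 284 with IFN-γ against 212 and 209 in medium, and C1qc 606 and 626 against 593 and 549. Csf1r read 329 and 427 with IFN-γ against 517 and 538 in medium. The sum of 4 B cell markers was 2701 and 2836 with IFN-γ against 2470 and 2706 in medium at 16 hours, and 1833 and 1938 with IFN-γ against 2139 and 2482 in medium at 4 hours. The sum of 5 monocyte and neutrophil markers was 2811 and 3445 with IFN-γ against 3055 and 3238 in medium at 16 hours. At 4 hours it was 2935 and 3159 with IFN-γ against 3340 and 3499 in medium. Over the groups, 4 T cell markers summed to between 939 and 1145 and 3 plasmacytoid dendritic cell markers to between 1430 and 1791. The part of all these cells in the results was not tested. In bulk samples a change in the share of cells of a type and a change in RNA per cell cannot be told apart.

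All 4 genes were higher with IFN-γ at 16 hours. Gbp2, Gbp3 and Gbp7 were higher by 2.29 to 3.15 times and Gbp2b, which was at background in medium, by at least 1.53 times. Of the 4, 3 passed the test, Gbp2, Gbp7 and Gbp2b, where 0.161% of all probe sets rose. The call of Gbp2b rests on medium values below the antisense median. Intensities below are those of the probe set on array 1 and array 2. Gbp2 read 2017 and 2394 with IFN-γ and 632 and 770 in medium. Gbp7 read 440 and 623 with IFN-γ and 168 and 218 in medium. Both arrays with IFN-γ were above both arrays in medium for each, and the lower array with IFN-γ was array 1 in both.

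Gbp2 rose by 1.65 on the log2 scale (SE 0.14, 95% interval 1.34 to 1.97, adjusted p = 0.00152, limma), which is 3.15-fold. Gbp7 rose by 1.45 (SE 0.21, interval 0.99 to 1.92, adjusted p = 0.032), which is 2.74-fold. These differences stood 6th and 10th of 12422 when probe sets were ordered from the highest difference down.

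Gbp3 read 283 and 459 with IFN-γ and 140 and 178 in medium at 16 hours, again without overlap, though its IFN-γ arrays lay far apart. It differed by 1.19 (SE 0.21, interval 0.71 to 1.67) with an adjusted p of 0.0892, or 0.00166 with the replicate number as a block. On arrays of the same number the difference was 1.02 and 1.37. Gbp2b was the dimmest, at 63.5 and 112 with IFN-γ and 32.9 and 29.5 in medium. In medium it lay below 12 and 13 of the 15 antisense controls, and with IFN-γ below 5 on array 1 and below 1 on array 2. Gbp2b rose by 1.44 (SE 0.22, adjusted p = 0.0465), with 0.95 on the arrays numbered 1 and 1.92 on those numbered 2. With the median of the antisense controls taken as the lowest readable level, a choice made after the values were seen, Gbp2b was at least 1.53-fold higher. That bound is a mean over unlike arrays. On array 1 Gbp2b read 63.5 with IFN-γ, where the antisense median in medium was 61.2, so little rise above that level can be read there. On array 2 it read 112, where that median was 49.7. The log2 differences of Gbp2b here and below are those of the measured values, with no exact fold behind them.

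Over all probe sets at 16 hours, 0.0966% fell and 9.1% had both IFN-γ arrays above both medium arrays. The median difference of the 4 genes was 1.44, or 1.32 with Gbp2b at that bound, against -0.00319 over all probe sets. With the replicate number as a block all 4 genes were called, where 0.411% of all probe sets rose. Gbp2 was the one of the 4 called whichever array was left out, with an adjusted p of at most 0.0255 over all alternatives. When a single array was left out, 1 to 4 of the genes passed: 4 without array 1 of IFN-γ at 16 hours, 2 without array 2 of that group, and 1 without either array of medium at 16 hours or any array at 4 hours.

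**Figure D2:**
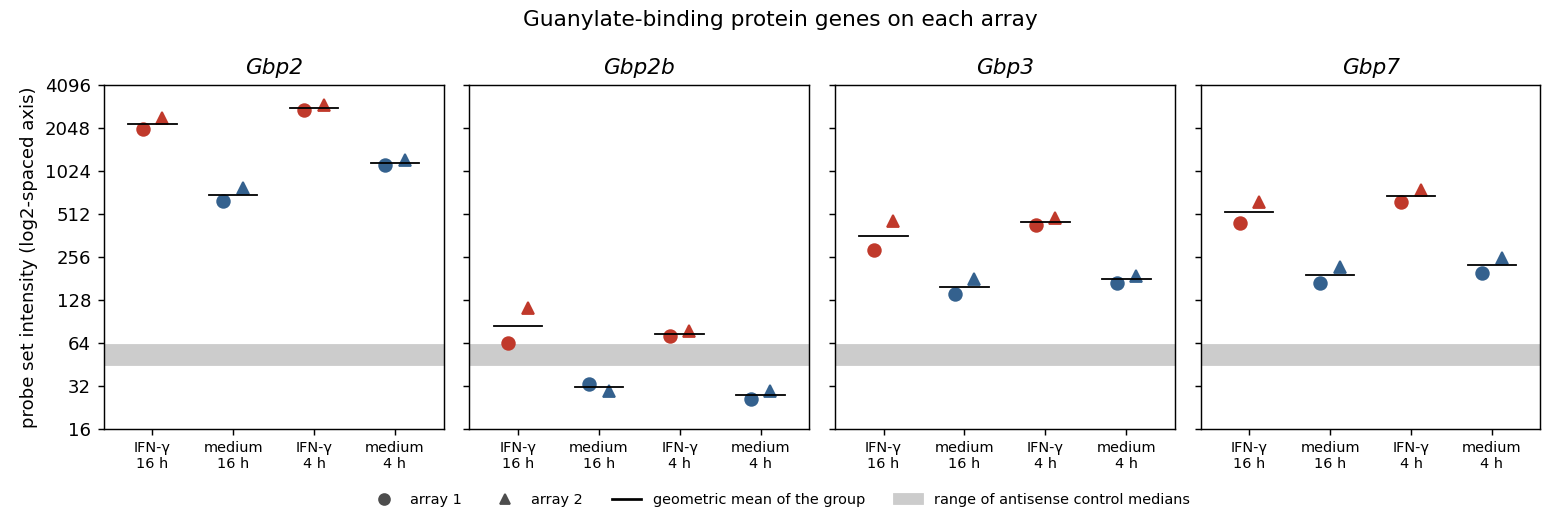
Probe set intensity of the 4 genes on each array, on a log2-spaced axis; circles are array 1, triangles array 2, bars the geometric mean of each group and the grey band the range of the antisense control medians. IFN-γ arrays (red) lie above medium arrays (blue) at both times in every panel, and Gbp2b in medium lies below the band.

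At 4 hours the same direction was seen, and 3 of the 4 genes passed, Gbp2, Gbp7 and Gbp2b, where 0.258% of all probe sets rose. The call of Gbp2b again rests on medium values below the antisense median. Gbp2, Gbp3 and Gbp7 were higher by 2.42 to 3.07 times. Gbp2b was higher by at least 1.44 times with the antisense median as its lowest readable level. Gbp7 read 621 and 754 with IFN-γ and 197 and 252 in medium. Gbp2 read 2724 and 2959 with IFN-γ and 1132 and 1213 in medium. Gbp3 read 425 and 476 with IFN-γ and 169 and 189 in medium. No IFN-γ array overlapped a medium array for any of these genes, and Gbp2b likewise read 71.4 and 76.8 with IFN-γ and 25.8 and 29.5 in medium.

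Gbp7 rose by 1.62 (SE 0.21, interval 1.15 to 2.08, adjusted p = 0.0137, limma), Gbp2b by 1.42 (SE 0.22, adjusted p = 0.0464) and Gbp2 by 1.28 (SE 0.14, interval 0.97 to 1.59, adjusted p = 0.00502). Gbp3 differed by 1.33 (SE 0.21, interval 0.85 to 1.82), with an adjusted p of 0.0515, or 0.000745 with the replicate number as a block. On arrays of the same number its difference was 1.34 and 1.33. Gbp2b was below 12 and 11 of the 15 antisense controls in medium and below 4 and 2 with IFN-γ, and with their median as the lowest readable level it was at least 1.44-fold higher.

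By size of difference Gbp7 stood at place 12, Gbp3 at 18 and Gbp2 at 19 of 12422, and Gbp2b, with a bound only, has no place. Over all probe sets, 15.4% had both IFN-γ arrays above both medium arrays. The genes' median was 1.38, or 1.31 with Gbp2b at its bound, against -0.00759 over all probe sets. With the block all 4 genes were called, where 1.09% of all probe sets rose. None of the 4 passed when any array of the comparison at 4 hours was left out (adjusted p of Gbp2 0.0552 to 0.103), and all 4 did when either IFN-γ array of 16 hours was left out, with differences between 1.22 and 1.80 throughout. The 3' to 5' ratio of Actb, which reads how whole the labelled RNA was, stood at 1.47 and 1.65 with IFN-γ against 2.04 and 2.20 in medium here, and 1.68 and 1.66 against 1.63 and 1.57 at 16 hours, and its part in the result was not tested.

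**Figure D3:**
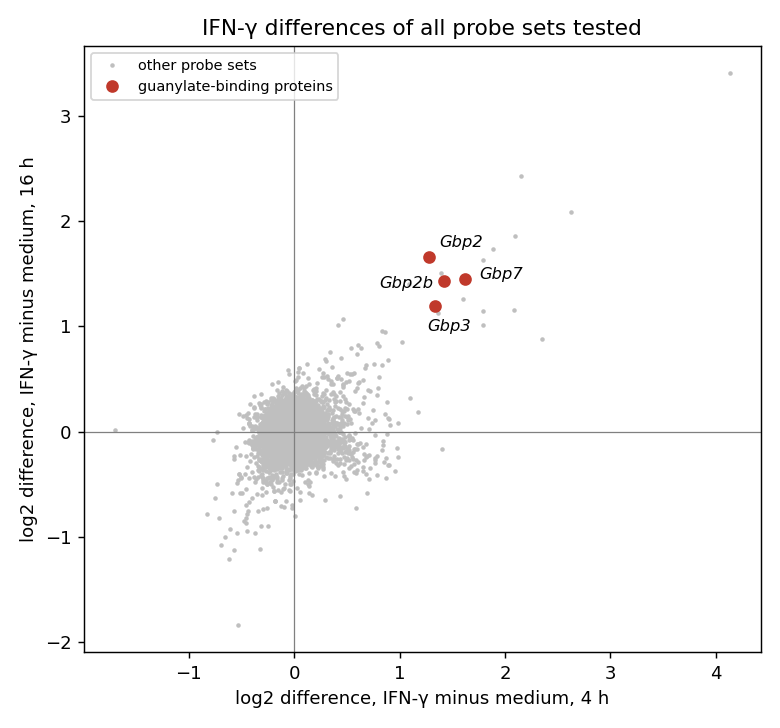
Log2 difference between IFN-γ and medium at 4 hours (horizontal) and at 16 hours (vertical) for each of 12422 probe sets; red points are the 4 guanylate-binding protein genes. They lie between 1.28 and 1.62 at 4 hours and between 1.19 and 1.65 at 16 hours, outside the main cloud around 0, with Gbp2b drawn at its measured values, which were below background in medium.

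Whether the IFN-γ effect differed between the times was tested by the difference of the effects. For Gbp2 the effect was 1.65 at 16 hours and 1.28 at 4 hours, a difference of 0.38 (interval -0.06 to 0.82, adjusted p = 1, or 0.568 with the block). For Gbp7 the effects were 1.45 and 1.62, a difference of -0.17 (interval -0.82 to 0.49). The difference was -0.14 for Gbp3 (interval -0.82 to 0.54). For Gbp2b the fit gave 0.01 (interval -0.70 to 0.73), from medium values below the antisense median at both times, so neither of its effects is exact and their difference cannot be read. None of the 4 passed, nor did any of the 12422 probe sets (0%) by limma, while 353 (2.84%) had an unadjusted p under 0.05 and 30 (0.242%) passed with the block, none of them a member. The intervals hold values on both sides of 0, and these data do not show that the effect was equal at both times.

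The level of Gbp2 was lower at 16 than at 4 hours in medium, and Gbp2 was the member that passed that test. Its medium arrays of 16 hours, at 632 and 770, lay below those of 4 hours, at 1132 and 1213. It fell by 0.75 on the log2 scale (SE 0.14, interval -1.06 to -0.44, adjusted p = 0.0197), to 0.596 of its level at 4 hours. In the same comparison 2.57% of all probe sets fell, 1.71% rose, and 20.8% had both arrays of 16 hours below both of 4 hours. This call was lost without either array of medium at 4 hours or array 1 at 16 hours, with differences of -0.80, -0.70 and -0.60. The macrophage marker sums above were higher at 16 hours. The CD8+ dendritic cell sum in medium was lower, at 3454 to 3659 against 4340 to 4536 at 4 hours. The 3' to 5' ratio of Actb in medium was 1.63 and 1.57 at 16 hours against 2.04 and 2.20 at 4 hours. The part of these in the fall of Gbp2 was not tested.

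The other members varied less with time in medium. Gbp7 had 168 and 218 at 16 hours against 197 and 252 at 4 hours, and differed by -0.22 (interval -0.69 to 0.25). Gbp3 differed by -0.18 (interval -0.66 to 0.30) and Gbp2b by 0.18 (interval -0.33 to 0.68), and for all of them the arrays of the times overlapped. Whether Gbp2 differs from its neighbours in this respect was not tested. In medium Gbp2b stayed below the antisense median at both times, so a change with time cannot be read from it.

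With IFN-γ present, the Gbp2 arrays of 16 hours (2017 and 2394) again lay below those of 4 hours (2724 and 2959). Its difference was -0.37 (interval -0.68 to -0.06, adjusted p = 0.25, blocked 0.0324). Gbp7 had 440 and 623 at 16 hours against 621 and 754 at 4 hours, a difference of -0.39 (interval -0.85 to 0.08, adjusted p = 0.466, blocked 0.0268). Gbp3 differed by -0.32 (interval -0.80 to 0.16) and Gbp2b by 0.19 (interval -0.32 to 0.69). None of the 4 passed without the block, where 1.3% of all probe sets fell, and 2 passed with it, where 6.94% fell, and 17.7% had both arrays of 16 hours below both of 4 hours. The arrays of the times overlapped for Gbp7, Gbp3 and Gbp2b and did not for Gbp2.

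From highest to lowest, the group means of Gbp2 ran from IFN-γ at 4 hours through IFN-γ at 16 hours and medium at 4 hours to medium at 16 hours, and none of these groups overlapped. Gbp3 and Gbp7 had the same order, but the times overlapped within IFN-γ and within medium. For Gbp2b both IFN-γ groups, which overlapped, were above both medium groups, which were below the antisense median and have no order. In 15 of 16 cases, each a gene in a group, the array numbered 2 read higher, the exception being Gbp2b in medium at 16 hours. The 4 genes were read on the same pair of arrays in each of the 4 groups, so these cases are not independent. Over all probe sets array 2 was higher for 40.1 to 51.3% in the 4 groups.

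**Figure D4:**
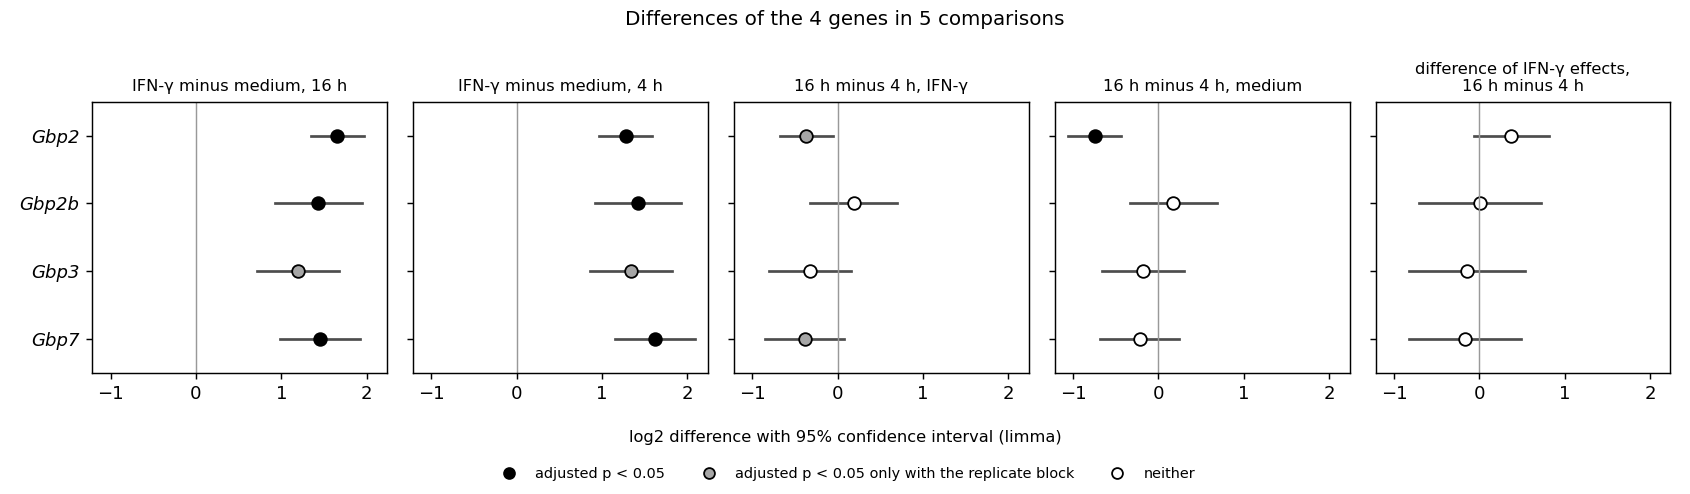
Log2 differences of the 4 genes (points) with 95% confidence intervals (lines) in 5 comparisons; black points passed the test, grey points passed only with the replicate number as a block, and white points passed neither. The IFN-γ differences, of measured values also for Gbp2b, lie between 1.19 and 1.65 and their intervals leave out 0, while the changes with time lie between -0.75 and 0.19.

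The 4 profiles were alike over the 8 arrays. Pearson's r was 0.993 between Gbp3 and Gbp7, 0.964 between Gbp2 and Gbp7, 0.954 between Gbp2 and Gbp3, 0.935 between Gbp2b and Gbp3, 0.927 between Gbp2b and Gbp7 and 0.852 between Gbp2 and Gbp2b. The IFN-γ and medium arrays form separate clusters, and r includes the step between them, so it is given as a description. Among 164 other genes whose group means ranged over at least 1 on the log2 scale, 8 had the profile most like the mean of the 4. Upp1, a uridine phosphorylase, Igtp, an immunity-related GTPase, and Cnn3, an actin-binding calponin, each had r = 0.991. Nampt, an enzyme of NAD synthesis, had r = 0.987, Ifi47, another immunity-related GTPase, 0.981, Cxcl9, a chemokine for activated T cells, 0.98, Wars, the tryptophanyl-tRNA synthetase, 0.978, and Irgm1, a regulatory GTPase, 0.962. These 8 were picked by a profile that holds the step between IFN-γ and medium. Their rises follow from that choice and are given as a description. Upp1 rose by 0.95 at 16 hours (adjusted p = 0.0129) and by 0.86 at 4 hours (adjusted p = 0.0141). Cxcl9 rose by 3.40 at 16 hours (adjusted p = 0.000313) and by 4.13 at 4 hours (adjusted p = 0.000164). Cnn3 rose by 1.63 and 1.79 at these times, and Wars by 1.26 and 1.60. Nampt and Irgm1 passed at 4 hours, and at 16 hours had adjusted p = 0.0987 and 0.0592 (blocked 0.00177 and 0.00326). Ifi47 had adjusted p = 0.175 at 16 hours and 0.0704 at 4 hours (blocked 0.00338 and 0.000894). For none of the 8 was the difference of the effects between times called, nor for any of the 12422 probe sets (0%), so this is not particular to the 8.

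**Figure D5:**
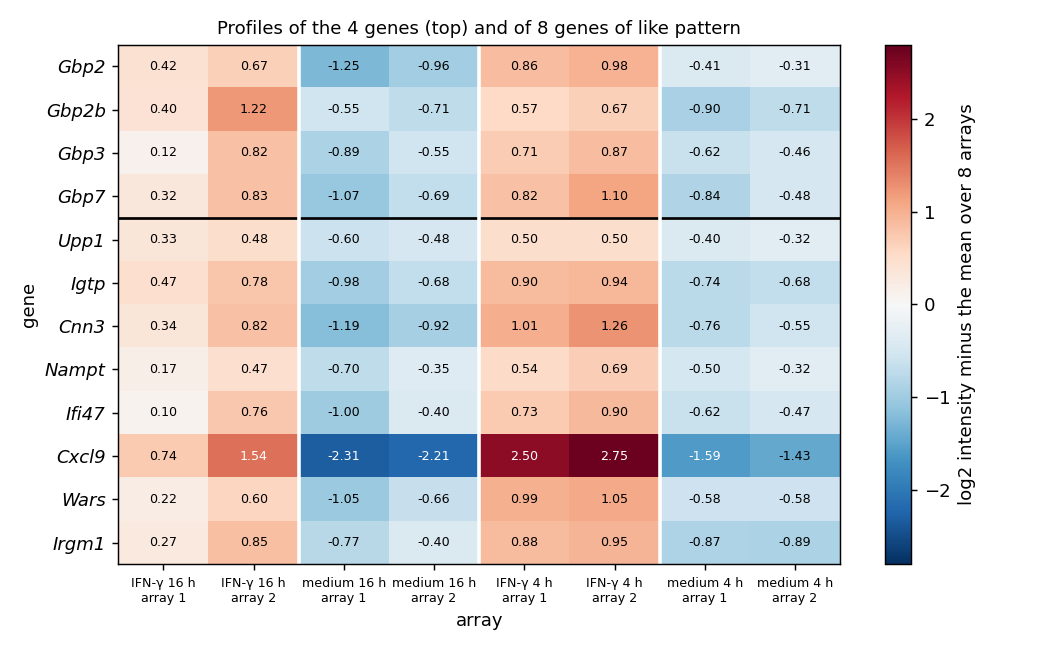
Log2 intensity minus its mean over the 8 arrays, as colour and number, for the 4 guanylate-binding protein genes (above the line) and the 8 genes of most like profile (below), with a column for each array. All 12 are above their mean on each IFN-γ array and below it on each medium array, and Cxcl9 has the widest range, -2.31 to 2.75.

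Genes that act before the guanylate-binding proteins were read from a list of the receptor, its kinases, transcription factors and inhibitors. Of 18 measured genes of IFN-γ signalling, 3 rose at 16 hours, Irf1, Irf8 and Socs1, and 2 at 4 hours, Irf1 and Socs1, and none fell, where 0.161% of all probe sets rose at 16 hours and 0.258% at 4 hours. Irf8, a factor of dendritic cell development, rose by 0.82 at 16 hours (adjusted p = 0.0158) and differed by 0.61 at 4 hours (adjusted p = 0.0612, blocked 0.00892). Irf1, the factor that binds the response element, rose by 0.96 at 16 hours (adjusted p = 0.0075) and by 0.84 at 4 hours (adjusted p = 0.0123). Socs1, an inhibitor of the JAK kinases, rose by 1.51 (adjusted p = 0.0137) and 1.39 (adjusted p = 0.0141) at these times. The median of the list was 0.12 at both times. In medium 1 of the 18 fell between the times, Irf8, by 0.47 (adjusted p = 0.0385, limma), where 2.57% of all probe sets fell. For Irf1 the difference was -0.40 (adjusted p = 0.0603, blocked 0.013). Gbp2 fell in the same comparison, and a link of these genes to it was not tested.

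The other interferon-inducible GTPases include the immunity-related GTPases, which act with guanylate-binding proteins on vacuoles, and the antiviral Mx proteins. Of 7 measured, 2 rose at 16 hours, Iigp1 (2.08) and Igtp (1.46), and 5 with the block, with a median of 1.13, where 0.161% of all probe sets rose and 0.411% with the block. At 4 hours 4 rose, Iigp1 (2.63), Irgm1 and Irgm2 (1.80 each) and Igtp (1.63), or 5 with the block, and the median was 1.63, where 0.258% of all probe sets rose and 1.09% with the block. None fell at either time. The 2 that passed at neither time, also with the block, were Mx1 and Mx2, named here after their values were seen: Mx1 had differences of -0.43 at 16 hours and 0.39 at 4 hours, and Mx2 of -0.01 and 0.36.

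Genes that work on or after the proteins mostly did not pass, and neither did most probe sets. At each time 0.258% of all probe sets passed in either direction, so a short list with none passing is near that share. None of 4 measured genes of prenylation passed at either time, with medians of 0.07 at 16 hours and -0.07 at 4 hours. They were the farnesyltransferase subunits Fnta and Fntb and the later-acting protease Rce1 and methyltransferase Icmt. Pggt1b and Zmpste24, also on this list of 6, were not measured, so the list was read only in part. Of 12 measured genes of the autophagy conjugation and ubiquitin route, by which guanylate-binding proteins reach vacuoles, none passed at 16 hours and 1 rose at 4 hours, where 0.258% of all probe sets did, Trim21, a ubiquitin ligase (0.79, adjusted p = 0.0188). In medium 3 of the 12 fell between the times, where 2.57% of all probe sets did, led by Sqstm1, an autophagy receptor, with a difference of -0.94 (adjusted p = 0.00529).

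Of 5 measured inflammasome genes none passed at either time by limma without the block, where 0.258% of all probe sets did at each time. Casp4, which encodes the caspase that senses cytosolic lipopolysaccharide, was 0.68 higher on the log2 scale at 16 hours (adjusted p = 0.388, blocked 0.00892) and 0.89 higher at 4 hours (adjusted p = 0.111, blocked 0.00152). Il1b, a cytokine that inflammasomes release, had a difference of -0.87 at 16 hours (adjusted p = 0.0998, blocked 0.0019). Of 8 measured genes of oxidative and nitrosative defence none passed at either time without the block, near the same share. Acod1, which makes itaconate, had a difference of 1.07 at 16 hours (adjusted p = 0.0944, blocked 0.000702), and Cybb, an oxidase subunit, had -0.61 at 16 hours (adjusted p = 0.931) and 0.43 at 4 hours (adjusted p = 1). The difference of these Cybb effects was -1.04 (adjusted p = 0.813, blocked 0.0477).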

How the data were processed

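Total RNA of 8 samples was hybridised to Affymetrix MG-U74Av2 arrays. The authors deposited 1 intensity per probe set and array on a linear scale, made with RMA per the submitters' processing notes, its version being not given in the sources used here. Log2 was taken with no pseudocount or further normalization, and 66 array controls were left out of 12488 probe sets. Gene names are those of the platform annotation, matched by gene number to RefSeq (GRCm38.p6): 10833 probe sets had 1 symbol, 396 several and 1193 none, and 16 of the first were unmatched. Each gene on a list was represented by its brightest probe set. Promoter letters are from RefSeq.

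Differences were tested with limma 3.58.1 in R 4.3.3 (two-sided, 4 group means, 8 arrays), with Benjamini-Hochberg adjustment over 12422 probe sets and calls at 0.05, and checked on simulated data. Replicate numbers are those of the sample titles, which do not say that arrays of equal number belong together. That pairing was taken from the data: the array differences of any pair of groups correlated at 0.367 to 0.740. The blocked p-values therefore rest on a pairing seen in these same data. The members, lists, tests and the rule for genes of like profile (the 8 highest r with a range of at least 1) were chosen with earlier results of these data known. From each list, genes that passed or were among the 3 with the largest differences could be named. Alternatives were other normalization, filters, priors, thresholds, a log offset of 16, 1 value per gene, fewer arrays and the block.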

Additional observations from a re-analysis of the deposited data

How the results depend on the processing

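All 4 genes were higher with IFN-γ than in medium at both times under every alternative run, by 1.03 to 1.84 (Gbp2b), 1.51 to 1.80 (Gbp2), 0.84 to 1.54 (Gbp3) and 1.20 to 1.70 (Gbp7) at 16 hours. At 16 hours 3 genes were called, against 1 in the fit of only the 4 arrays compared, 1 at an adjusted p under 0.01 and 1 with 16 added before the log, and 1 to 4 with an array left out. At 4 hours, where 3 were called, 1 was at an adjusted p under 0.01, 1 with 16 added before the log, and 0 to 4 with an array left out. Gbp2b, at background in medium, also missed the threshold at 4 hours after quantile normalization, median centring, removal of the dimmest 40% of probe sets or with 1 value per gene (adjusted p 0.0539 to 0.0718, and 0.00084 to 0.489 over all alternatives), and at 16 hours after median centring (0.0695) or that removal (0.0576). The fall of Gbp2 with time in medium was not called at an adjusted p under 0.01 (0 genes), at a log2 difference of at least 1 (0 genes) or in some fits without an array (0 to 1). With the replicate block all 4 genes were called at both times, and 2 genes, against 0 without it, between the times with IFN-γ, while 157 probe sets in all were called at 4 hours (32 without it) and 105 at 16 hours (32 without it).

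With an array left out, the difference of the IFN-γ effects ran from -0.40 to 0.42 for Gbp2b, -0.49 to 0.21 for Gbp3 and -0.42 to 0.086 for Gbp7, and the change with time under IFN-γ from -0.22 to 0.60 for Gbp2b and -0.67 to 0.028 for Gbp3. None of these was called, and the cause was not tested. Such fits assume that the array remaining in a group varies like those of the other groups. Replicate arrays differed most with IFN-γ at 16 hours (SD over probe sets 0.311), and 2 arrays a group limit the precision throughout.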
